A study of Rattus norvegicus with 12 samples.

Results

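Diabetes begun after puberty was examined in the renal cortex of adult male rats on 6 arrays, 3 from diabetic and 3 from nondiabetic rats of 20 weeks of age, out of 12 arrays in the study. The 6 were taken by their labels alone, as diabetic or nondiabetic at that age. Diabetic rats had been given streptozocin, which destroys the beta cells of the pancreas, into a vein at 65 mg/kg when 14 weeks old. An insulin palmitate pellet followed 3 days later, and the protocol ran for 6 weeks with free access to food and water. Blood glucose was held at 350 to 450 mg/dl per the sample labels. Nondiabetic rats received vehicle at 14 weeks and a palmitate pellet without insulin 3 days later. The other 6 arrays come from rats whose protocol began at 4 weeks of age and that were examined at 10 weeks, 3 diabetic and 3 nondiabetic. Their labels give the same steps, except that the label of diabetic replicate 1 of 10 weeks names a vehicle pellet. That array was kept as diabetic. No group had streptozocin without diabetes, so an effect of the toxin, of the insulin pellet and of high glucose cannot be told apart. The labels do not say whether an array stands for 1 rat or for a pool, and the p-values measure only the spread between these samples.

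The renal cortex consists mostly of proximal tubule, which takes back filtered glucose, amino acids and phosphate, secretes organic anions, makes glucose and runs largely on fatty acid oxidation. In untreated diabetes the filtered load of glucose rises, insulin action on fat and protein stores is low, and the kidney grows. Injured tubule cells are known to switch on genes such as Havcr1 (kidney injury molecule) and the fibrinogen chains. The values below are linear probe-set signals, each measured by a group of short probes against 1 transcript. A level of one probe set cannot be set against that of another, so each is compared only with itself between groups.

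The 6 arrays of 20 weeks resembled each other closely, with correlations of log2 signals of 0.956 to 0.971 within a group and 0.942 to 0.964 between groups. The ratio of 3' to 5' signal of the Gapdh control, a measure of RNA integrity that increases with degradation, was 2.09, 1.42 and 1.54 on nondiabetic replicates 1 to 3 and 1.60, 1.68 and 1.76 on the diabetic arrays. The groups overlapped in it (log2 difference 0.014, two-sided exact permutation p = 1, where 0.1 is the smallest p possible). Nondiabetic replicate 1 had the highest ratio. Without it 399 probe sets were called in place of the 529 described below, and 214 of the 529 lost their call. For cortex as the labelled tissue, all 31 proximal tubule markers on the array were bright enough to be tested, and their summed signal lay between 377500 and 443900 on the 6 arrays.

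Of 18625 probe sets tested, 529 (2.84%) differed between diabetic and nondiabetic arrays at an adjusted p under 0.05 and are called changed, 228 (1.22%) higher and 301 (1.62%) lower. Each log2 difference below carries its standard error (SE) from the linear model, and 1 unit is a 2-fold difference. At least 2-fold differences were found for 68 higher and 65 lower probe sets, at least 4-fold ones for 6 and 5, and 192 of the 529 differed by less than 1.5-fold. On all 529 the 3 diabetic arrays lay entirely above or entirely below the 3 nondiabetic ones, which held for 3894 (20.9%) of all probe sets tested (10.1% with the diabetic arrays higher, 10.9% lower). On 1 probe set for each gene, the brightest, 369 of 10581 genes (3.49%) were called, 156 higher (1.47%) and 213 lower (2.01%). These shares are the background for the gene classes described below.

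Among the 20 largest rises was Pigr, the receptor that carries immunoglobulin A across epithelia, with 6146, 4599 and 5766 on the nondiabetic arrays and 12444, 15009 and 18576 on the diabetic arrays (log2 difference 1.47 ± 0.25, adjusted p = 0.00945). Cxcl11, a chemokine that draws T cells, had 761, 539 and 710 on the nondiabetic arrays and 1681, 1959 and 1772 on the diabetic arrays (log2 difference 1.44 ± 0.16, adjusted p = 0.000973). Sult1a1, which sulfates phenols, had 701, 907 and 1195 on the nondiabetic arrays and 1921, 2693 and 3261 on the diabetic arrays (log2 difference 1.49 ± 0.23, adjusted p = 0.00565). For all 3, as for every rise called, each diabetic array was above the highest nondiabetic array. Nek6, a kinase of mitosis, had 298, 340 and 276 on the nondiabetic arrays and 837, 834 and 736 on the diabetic arrays (log2 difference 1.40 ± 0.21, adjusted p = 0.00547). Baat, an enzyme of bile acid conjugation, showed the largest rise among probe sets that name a single gene, but from signals of 126, 70.3 and 103 that lie near the limit of 70.9 below which probe sets were left out. Its diabetic signals of 753, 938 and 2076 also spread the most among the genes named in this paragraph.

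Among the 20 largest falls, Hao1, the glycolate oxidase that supplies glyoxylate, had 775, 385 and 324 on the nondiabetic arrays and 66.6, 125 and 59.4 on the diabetic arrays. Tmem86a, a lysoplasmalogenase, had 672, 725 and 922 on the nondiabetic arrays and 210, 165 and 182 on the diabetic arrays, and Nrep, a small cytoplasmic protein, 4841, 5142 and 6540 on the nondiabetic arrays and 1158, 1733 and 1256 on the diabetic arrays. On these 3 probe sets even the nondiabetic array nearest to the diabetic ones stayed at more than 2-fold their highest signal. Gas2, an actin-associated protein, had 3065, 3173 and 3216 on the nondiabetic arrays and 1268, 1416 and 1051 on the diabetic arrays (log2 difference -1.35 ± 0.12, adjusted p = 0.000298). Pter, a phosphotriesterase-related enzyme, had 3797, 5589 and 4742 on the nondiabetic arrays and 1870, 1686 and 1713 on the diabetic arrays (log2 difference -1.41 ± 0.13, adjusted p = 0.000298). Basp1, a protein of the inner cell membrane, had 563, 586 and 852 on the nondiabetic arrays and 270, 228 and 239 on the diabetic arrays (log2 difference -1.42 ± 0.19, adjusted p = 0.00221). On all 3 of these probe sets, as on every one called lower, the highest diabetic array was below the lowest nondiabetic array. The triplets of Gas2 lay close together.

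**Figure D1:**
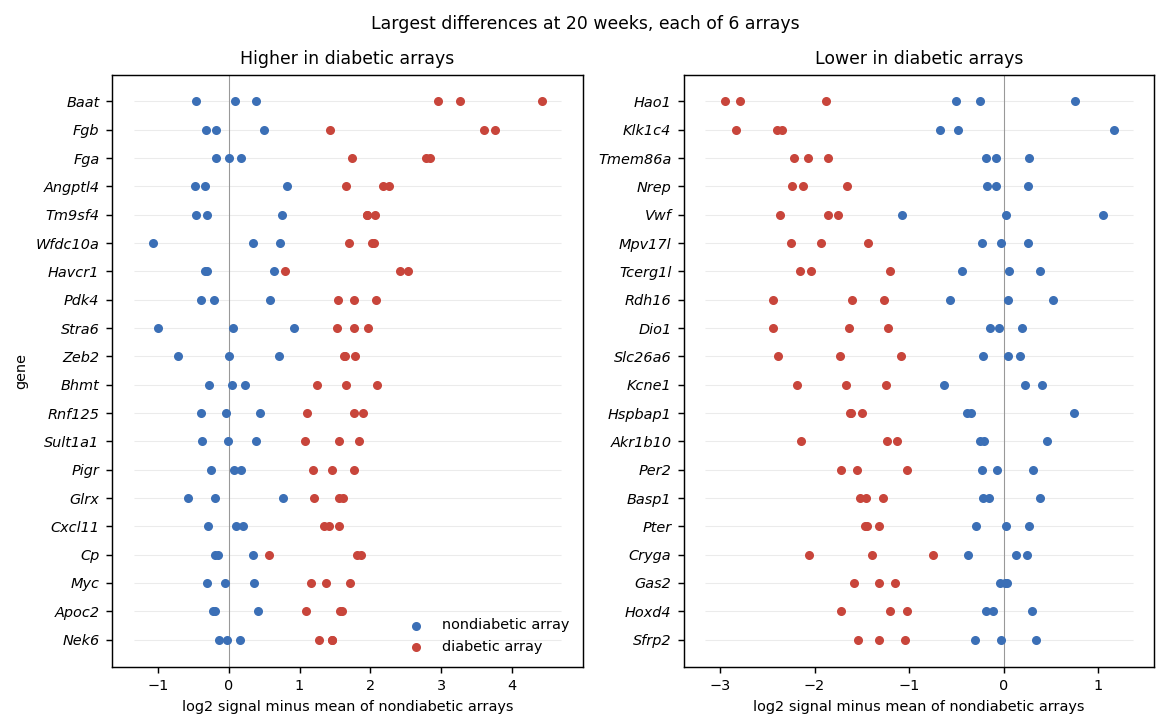
Log2 signal on each of the 6 arrays of 20 weeks, minus the mean of the 3 nondiabetic arrays, for the 20 largest higher (left) and 20 largest lower (right) genes called. Points are single arrays, nondiabetic in blue and diabetic in red; in Fgb, Havcr1 and Cp diabetic replicate 1 lies far below the other 2 diabetic arrays, while in Tmem86a, Pter and Gas2 the 3 diabetic arrays lie together.

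Of 36 classes of pathway genes, the class with the highest share of members called was tubular injury and dedifferentiation, with 9 of 33 higher and 0 lower, followed by sterol and fatty acid synthesis and by aquaporins and osmolytes. In limma, 0 members were called among proteasome subunits (3 of 41 had an unadjusted p under 0.05), interferon response genes (6 of 41), ammonia genesis (6 of 22), brush border peptidases (5 of 21) and cell cycle genes (4 of 36). Of all 18625 probe sets tested, 3131 had an unadjusted p under 0.05 in limma, which is the background for such counts here and below. The classes are described in turn by their counts and by the median log2 difference of their tested members, which over all 10581 genes was -0.01. The lists were chosen with earlier results of these data known, so a high share of calls in a class is not independent of these data.

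**Figure D2:**
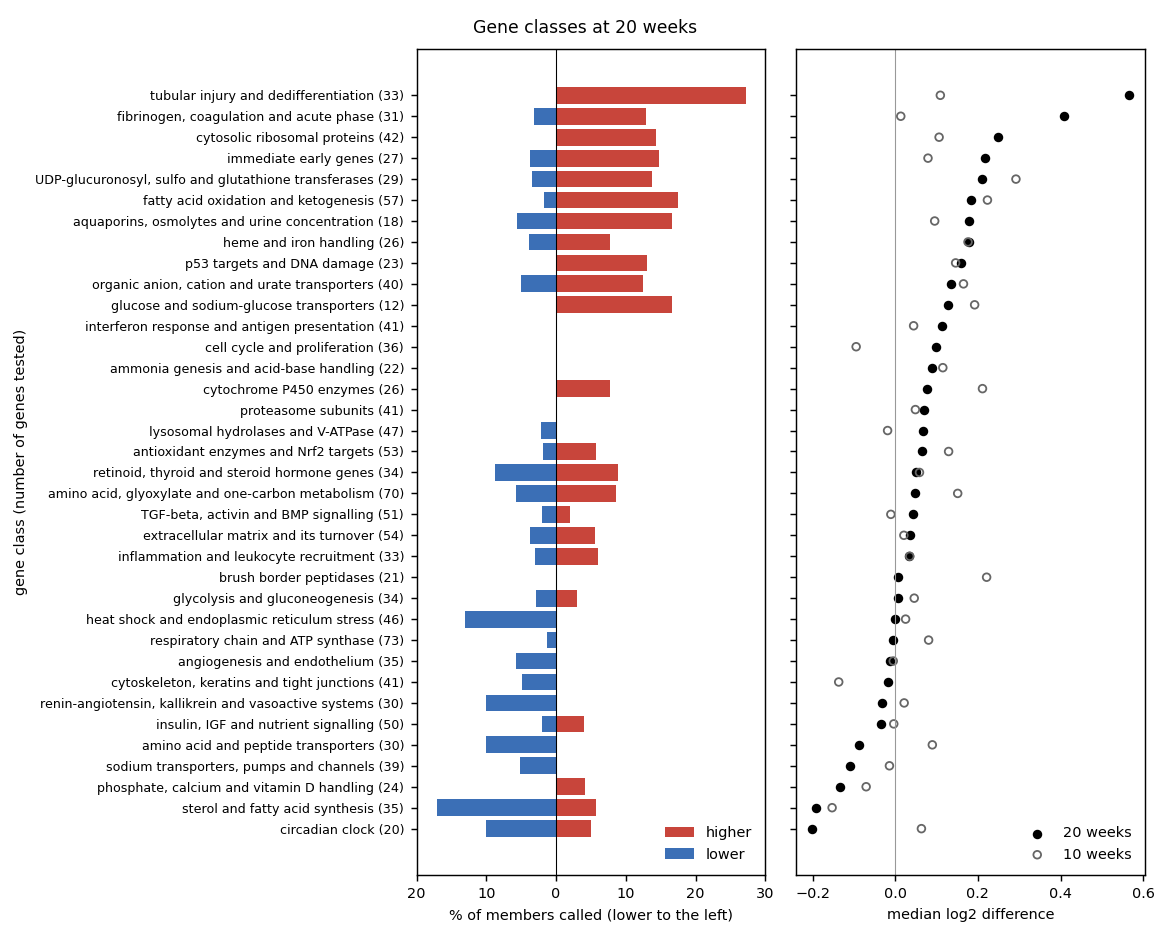
Left, the percentage of tested members called higher (red) or lower (blue) in diabetic arrays of 20 weeks for 36 pathway classes. Right, the median log2 difference, diabetic minus nondiabetic, of the tested members at 20 weeks (filled) and 10 weeks (open); tubular injury reaches 0.57 at 20 weeks against 0.11 at 10 weeks.

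Genes of fatty acid use were shifted upward. Of 57 tested members of fatty acid oxidation and ketogenesis 10 rose and 1 fell, and the median log2 difference was 0.18. Plin2, which coats lipid droplets, had 2648, 2341 and 2732 on the nondiabetic arrays and 4167, 4416 and 4369 on the diabetic arrays (log2 difference 0.75 ± 0.10, adjusted p = 0.00202). Slc27a2, which activates very long chain fatty acids, had 13704, 15546 and 16055 on the nondiabetic arrays and 20745, 21876 and 22731 on the diabetic arrays (log2 difference 0.53 ± 0.08, adjusted p = 0.00503). Eci1, an isomerase for unsaturated chains in mitochondria, had 5677, 5849 and 6564 on the nondiabetic arrays and 8976, 11181 and 10942 on the diabetic arrays (log2 difference 0.78 ± 0.18, adjusted p = 0.0387). The genes that rose include enzymes of peroxisomes and of mitochondria as well as genes of lipid storage and fuel choice. Cpt2, the inner carnitine transferase, had 830, 665 and 729 on the nondiabetic arrays and 1102, 1189 and 1293 on the diabetic arrays, and Ehhadh, an enzyme of peroxisomal oxidation, 3135, 3264 and 4325 on the nondiabetic arrays and 5167, 5534 and 6833 on the diabetic arrays. Acsl1, the main long chain acyl-CoA ligase of oxidative tissue, rose (log2 difference 0.66 ± 0.15, adjusted p = 0.0322), as did Etfb, an electron carrier of the mitochondrial steps (log2 difference 0.46 ± 0.11, adjusted p = 0.0446), and Cyp4a1, an omega-hydroxylase (log2 difference 1.08 ± 0.19, adjusted p = 0.0124). Acsl3, a ligase of the endoplasmic reticulum, was the member that fell, with 1189, 1440 and 1134 on the nondiabetic arrays and 648, 685 and 832 on the diabetic arrays. Acadm, the medium chain dehydrogenase, had 11996, 13323 and 14011 on the nondiabetic arrays and 12820, 12028 and 13779 on the diabetic arrays and gave -0.03 ± 0.08 (adjusted p = 0.918). Without nondiabetic replicate 2 the calls of the class fell from 11 to 4, and those of Plin2, Slc27a2, Angptl4 and Acsl3 held without each of the 6 arrays in turn.

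Angptl4, one of the 10 that rose, which inhibits lipoprotein lipase, had 143, 129 and 318 on the nondiabetic arrays and 571, 814 and 869 on the diabetic arrays (log2 difference 2.03 ± 0.33, adjusted p = 0.00692). Apoc2, the activating cofactor of the same lipase, is on none of the gene lists and was among the 20 largest rises, with 143, 219 and 141 on the nondiabetic arrays and 349, 487 and 496 on the diabetic arrays (log2 difference 1.42 ± 0.31, adjusted p = 0.0324). In both, as in every probe set called, nondiabetic and diabetic arrays did not overlap. Pdk4, which blocks the entry of pyruvate into the citric acid cycle, had 263, 231 and 455 on the nondiabetic arrays and 883, 1037 and 1285 on the diabetic arrays (log2 difference 1.80 ± 0.33, adjusted p = 0.0142). A dimmer probe set of Pdk4, with a mean signal of 81.9, gave 0.04 (adjusted p = 0.986).

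Genes of lipid synthesis mostly fell where they changed. Of 35 members tested, 6 fell and 2 rose, and the median was -0.19. Acly, which makes cytosolic acetyl-CoA, had 2737, 3364 and 2875 on the nondiabetic arrays and 1948, 2024 and 2026 on the diabetic arrays (log2 difference -0.58 ± 0.09, adjusted p = 0.00718), and Fasn, the fatty acid synthase, 1087, 1102 and 846 on the nondiabetic arrays and 700, 661 and 639 on the diabetic arrays (log2 difference -0.59 ± 0.12, adjusted p = 0.0232). The desaturases Fads1, with 3272, 3205 and 2291 on the nondiabetic arrays and 1488, 1456 and 885 on the diabetic arrays (log2 difference -1.22 ± 0.20, adjusted p = 0.00653), and Fads2, with 719, 630 and 562 on the nondiabetic arrays and 429, 438 and 412 on the diabetic arrays (log2 difference -0.57 ± 0.12, adjusted p = 0.0263), which insert double bonds into polyunsaturated chains, were both lower. Elovl1, an elongase of very long chains, fell too (log2 difference -0.41 ± 0.10, adjusted p = 0.0461). On each of these 5 genes, as for every fall called, all 3 diabetic arrays were below all nondiabetic arrays. Among the sterol enzymes the directions differed: Tm7sf2, a sterol reductase, had 436, 531 and 400 on the nondiabetic arrays and 1044, 1186 and 1003 on the diabetic arrays (log2 difference 1.25 ± 0.18, adjusted p = 0.00375), and Dhcr7, the last reductase to cholesterol, rose just past the threshold (log2 difference 0.99 ± 0.24, adjusted p = 0.0497), while Nsdhl, an enzyme of the same pathway, fell (log2 difference -0.65 ± 0.15, adjusted p = 0.0406). The class median ran from -0.28 to -0.10 when single arrays were left out, without nondiabetic replicate 1 only 3 of the calls were left in the class, and those of Acly, Fads1 and Tm7sf2 held without each array.

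Central carbon metabolism had few calls and no common direction. Of 34 genes of glycolysis and gluconeogenesis 1 rose and 1 fell (5.88% called, against 3.49% of all genes), with a median of 0.01. An unadjusted p under 0.05 was found for 9 of the 34, against 3131 of 18625 probe sets tested. The diabetic arrays were all higher for 5 of the 34 and all lower for 7, against 10.7% and 11.9% of all genes. Ldha, a subunit of lactate dehydrogenase, had 3094, 3480 and 3389 on the nondiabetic arrays and 4519, 5131 and 4887 on the diabetic arrays (log2 difference 0.54 ± 0.10, adjusted p = 0.0114), and the glycolytic enolase Eno1 had 19054, 19936 and 21116 on the nondiabetic arrays and 14085, 12945 and 13568 on the diabetic arrays (log2 difference -0.57 ± 0.07, adjusted p = 0.00227). Pck1, the rate-limiting enzyme of glucose production, had 22534, 17747 and 26790 on the nondiabetic arrays and 25275, 25553 and 26222 on the diabetic arrays and gave 0.22 ± 0.14 (adjusted p = 0.459), with overlapping arrays. Of 73 genes of the respiratory chain and ATP synthase only Atp5me was called, with 9809, 8506 and 8782 on the nondiabetic arrays and 7197, 5248 and 6622 on the diabetic arrays (log2 difference -0.52 ± 0.12, adjusted p = 0.0452), and a dimmer probe set of the same gene gave 0.19 (adjusted p = 0.83).

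Amino acid, glyoxylate and one-carbon metabolism had 10 of 70 members called, 6 higher and 4 lower, around a median of 0.05. Serine synthesis was lower at all 3 of its steps. Phgdh, the first enzyme, had 4021, 3478 and 3194 on the nondiabetic arrays and 2143, 2024 and 2601 on the diabetic arrays (log2 difference -0.66 ± 0.13, adjusted p = 0.0198). Psat1, the second, had 11826, 12840 and 13183 on the nondiabetic arrays and 9366, 9943 and 10500 on the diabetic arrays (log2 difference -0.34 ± 0.07, adjusted p = 0.0209), and Psph, the last, had 3692, 3059 and 3511 on the nondiabetic arrays and 1806, 2159 and 1863 on the diabetic arrays (log2 difference -0.82 ± 0.15, adjusted p = 0.0154). The falls were 1.58-, 1.27- and 1.76-fold, and none of these 3 calls held without each of the 6 arrays. On the side of homocysteine and glycine, Bhmt, which remethylates homocysteine with betaine, had 167, 210 and 238 on the nondiabetic arrays and 481, 637 and 868 on the diabetic arrays (log2 difference 1.67 ± 0.25, adjusted p = 0.00495). Amt, a subunit of the glycine cleavage system, had 3096, 2421 and 2523 on the nondiabetic arrays and 4257, 4083 and 4803 on the diabetic arrays (log2 difference 0.71 ± 0.13, adjusted p = 0.0149), and Mthfd1, which carries folate-bound carbon between oxidation states, had 5167, 5182 and 5349 on the nondiabetic arrays and 6880, 6311 and 7623 on the diabetic arrays (log2 difference 0.40 ± 0.08, adjusted p = 0.019). Kmo, an enzyme of tryptophan breakdown, and Gstz1, one of tyrosine breakdown, rose by 0.30 ± 0.07 and 0.75 ± 0.12 on the log2 scale (adjusted p = 0.0344 and 0.00568). Ftcd, of histidine breakdown, had 374, 538 and 368 on the nondiabetic arrays and 1032, 1061 and 1248 on the diabetic arrays, groups that did not overlap, and an adjusted p of 0.0621. Baat and Hao1, described above, are the other members called, and without nondiabetic replicate 2 there were 5 calls.

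Tubular injury genes were the class with the largest median, 0.57, and 29 of 33 members were positive. The members called differed in how well the diabetic arrays resembled each other. S100a10, which with Anxa2 forms a membrane-binding complex, had 1965, 1677 and 1941 on the nondiabetic arrays and 2687, 3805 and 3733 on the diabetic arrays (log2 difference 0.86 ± 0.15, adjusted p = 0.00951). S100a11, a relative, had 3447, 3386 and 3172 on the nondiabetic arrays and 4786, 6205 and 4387 on the diabetic arrays (log2 difference 0.61 ± 0.11, adjusted p = 0.0146), and Anxa2 itself 1560, 1377 and 1376 on the nondiabetic arrays and 1851, 2143 and 1808 on the diabetic arrays (log2 difference 0.43 ± 0.09, adjusted p = 0.0278). For these 3 genes, as for every rise called, each diabetic array was above each nondiabetic array. S100a6, of the same family, rose as well (log2 difference 0.62 ± 0.14, adjusted p = 0.0326). Havcr1 had 901, 457 and 467 on the nondiabetic arrays and 1002, 3097 and 3351 on the diabetic arrays, so that diabetic replicate 1 was only slightly above nondiabetic replicate 1. Spp1 (osteopontin), a secreted phosphoprotein of injured tubules, had 8209, 5089 and 6315 on the nondiabetic arrays and 9796, 22209 and 19625 on the diabetic arrays, with diabetic replicate 1 again close to the nondiabetic arrays. Lcn2, a lipocalin released by injured tubules, had 204, 144 and 154 on the nondiabetic arrays and 211, 582 and 645 on the diabetic arrays and did not pass (adjusted p = 0.0562). Vim, an intermediate filament of dedifferentiated tubule cells, had 1695, 1238 and 1207 on the nondiabetic arrays and 1618, 2694 and 2125 on the diabetic arrays and did not pass either (adjusted p = 0.103).

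This split between diabetic arrays ran through the class. The median deviation of its 33 members from the mean of the nondiabetic arrays was 0.29, -0.11 and -0.13 on nondiabetic replicates 1 to 3 and 0.25, 0.71 and 0.64 on diabetic replicates 1 to 3. By this median diabetic replicate 1 was close to nondiabetic replicate 1, the array with the highest Gapdh 3'/5' ratio, and above the other nondiabetic arrays. For 12 of the 33 members all diabetic arrays, replicate 1 included, were above all nondiabetic arrays, against 10.7% of all genes. Without diabetic replicate 1 the class median was 0.72 with 11 calls, and without diabetic replicate 3 there were 3 calls. The calls of Fga, S100a10 and S100a11 held without each array. Havcr1 lost its call without nondiabetic replicate 2 or 3 and without diabetic replicate 2 or 3, with log2 differences from 1.61 to 2.48. The part of RNA quality or of the degree of injury in single rats in this split was not tested.

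Fibrinogen, coagulation and acute phase genes shared the pattern, with 4 of 31 higher, 1 lower and a median of 0.41. The fibrinogen chains Fga, with 213, 167 and 189 on the nondiabetic arrays and 632, 1302 and 1359 on the diabetic arrays (log2 difference 2.46 ± 0.30, adjusted p = 0.00153), and Fgb, with 72.2, 45.1 and 41 on the nondiabetic arrays and 138, 622 and 694 on the diabetic arrays (log2 difference 2.93 ± 0.64, adjusted p = 0.0309), belong also to the injury list. Ambp, the precursor of alpha-1-microglobulin, had 193, 184 and 117 on the nondiabetic arrays and 358, 329 and 303 on the diabetic arrays (log2 difference 1.03 ± 0.25, adjusted p = 0.048), and F2r, the thrombin receptor, 2480, 1994 and 1799 on the nondiabetic arrays and 2987, 2957 and 2616 on the diabetic arrays (log2 difference 0.46 ± 0.11, adjusted p = 0.0423). Vwf, the clotting factor carried by endothelium, was the member that fell, with 654, 1329 and 304 on the nondiabetic arrays and 176, 190 and 125 on the diabetic arrays (log2 difference -1.99 ± 0.49, adjusted p = 0.0482), and its nondiabetic arrays spanned more than a 4-fold range. The class median was 0.03 on diabetic replicate 1 against 0.59 and 0.45 on replicates 2 and 3, and without nondiabetic replicate 2 only 1 of the 5 calls was left. Hepatocytes also express the fibrinogen chains. Of 16 hepatocyte markers on the array 10 were too dim to test, among them the defining Alb at 27.9 to 71.5 and Apoa1 at 2.94 to 30.5 on the 6 arrays. Of the 6 tested, 5 were positive and Fga, Fgb and Cyp2e1 were called, and their summed signal was 8076 to 10560 on nondiabetic and 16950 to 22120 on diabetic arrays. Most of that sum is Cyp2e1, at 6999 to 9481 and 13644 to 18748. The part of hepatocyte RNA in these values was not tested.

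Cytosolic ribosomal proteins moved together by small steps. Of 42 genes tested 40 had positive differences, 6 were called higher and 0 lower, and the median was 0.25. The arrays did not overlap, with the diabetic ones higher, for 28 of the 42, against 10.7% of all genes. Rpl21 had 6673, 7102 and 7061 on the nondiabetic arrays and 9665, 10561 and 9374 on the diabetic arrays (log2 difference 0.51 ± 0.08, adjusted p = 0.00568), Rpl23a 9346, 8879 and 9118 on the nondiabetic arrays and 11618, 13454 and 11630 on the diabetic arrays (log2 difference 0.42 ± 0.08, adjusted p = 0.0154), and Rpl13a 9589, 8656 and 10645 on the nondiabetic arrays and 13169, 12921 and 13286 on the diabetic arrays (log2 difference 0.45 ± 0.09, adjusted p = 0.0239). Rplp0, a protein of the ribosomal stalk, had 12036, 11054 and 11883 on the nondiabetic arrays and 14474, 15379 and 14152 on the diabetic arrays (log2 difference 0.33 ± 0.07, adjusted p = 0.0262). Rpl35a and Rpl4 rose as well, and the 6 rises were of 1.24- to 1.42-fold. The call of Rpl21 alone held without each array, and without nondiabetic replicate 2 only 1 call was left. The median of the class was 0.17, 0.30 and 0.29 on the 3 diabetic arrays and -0.09 to 0.06 on the nondiabetic ones. Ribosomal proteins have many processed pseudogenes, and probes can be shared with them.

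Chaperones of the cytosol and the endoplasmic reticulum were lower where they changed. Of 46 members 6 fell and 0 rose, while the median was -0.0015. Dnaja1, a partner of Hsp70, had 6900, 7552 and 7924 on the nondiabetic arrays and 5139, 5728 and 5289 on the diabetic arrays (log2 difference -0.47 ± 0.07, adjusted p = 0.00619), and Hsph1, an exchange factor of the same chaperone, 4741, 6155 and 6766 on the nondiabetic arrays and 4236, 3844 and 4098 on the diabetic arrays (log2 difference -0.52 ± 0.12, adjusted p = 0.0329). Manf, secreted on endoplasmic reticulum stress, had 2920, 3208 and 3580 on the nondiabetic arrays and 1613, 1912 and 2046 on the diabetic arrays (log2 difference -0.80 ± 0.14, adjusted p = 0.00924). Creld2, a protein of the same response, had 956, 1392 and 1206 on the nondiabetic arrays and 744, 646 and 853 on the diabetic arrays (log2 difference -0.66 ± 0.15, adjusted p = 0.0364), and Pdia4, a disulfide isomerase, 1668, 1793 and 1922 on the nondiabetic arrays and 1198, 1260 and 1318 on the diabetic arrays (log2 difference -0.51 ± 0.10, adjusted p = 0.0198). Hspbap1, which binds a small heat shock protein, had 864, 841 and 1847 on the nondiabetic arrays and 360, 358 and 391 on the diabetic arrays (log2 difference -1.58 ± 0.29, adjusted p = 0.0135). Hspa5 (BiP), the main chaperone of the endoplasmic reticulum, had 13774, 14491 and 17731 on the nondiabetic arrays and 10894, 12925 and 11470 on the diabetic arrays, arrays that did not overlap, and an adjusted p of 0.0858. The calls of Dnaja1 and Manf held without each array, and without diabetic replicate 2 only 2 were left.

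Genes of the unfolded protein response are known to carry the endoplasmic reticulum stress response element, which is CCAAT, then any 9 bases, then CCACG. It was searched on both strands in the 250 bases before the start of each gene in RefSeq promoters of the build GRCr8. It was found in 21 of 27457 promoters (0.0765%) and in 7 of the 38 list members that had a promoter there. Stretches of 4 of the 7 are printed 5′ to 3′ on the gene's strand, with the element in capitals, to set the member that fell beside 3 that did not pass. In Creld2 the element lies on the opposite strand, and its capitals are the reverse complement.
Creld2, chr7:121789214-121789282: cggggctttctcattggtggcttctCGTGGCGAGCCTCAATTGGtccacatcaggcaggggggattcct
Hspa5, chr3:38452948-38453015: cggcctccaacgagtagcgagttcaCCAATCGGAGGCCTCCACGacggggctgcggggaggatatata
Xbp1, chr14:84604533-84604601: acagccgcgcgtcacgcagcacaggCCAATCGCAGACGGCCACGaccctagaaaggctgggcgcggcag
Dnajc3, chr15:102432509-102432577: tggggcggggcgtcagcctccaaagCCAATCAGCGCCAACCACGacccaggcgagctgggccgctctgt
The element ends 126 bases before the start of Creld2, 24 before that of Hspa5, 46 before that of Xbp1 and 114 before that of Dnajc3. The log2 differences of these genes were -0.66 ± 0.15, -0.38 ± 0.11, -0.34 ± 0.12 and 0.07 ± 0.10, and Creld2 alone of the 7 was called. Xbp1, a transcription factor that binds the element, had 2958, 3229 and 3047 on the nondiabetic arrays and 2323, 2464 and 2522 on the diabetic arrays, and Dnajc3, a cochaperone of Hspa5, 1151, 1161 and 1315 on the nondiabetic arrays and 1142, 1431 and 1239 on the diabetic arrays. Genes with the same letters thus had differences from -0.66 to 0.07 in this comparison.

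Of 20 genes of the circadian clock 2 fell and 1 rose, with a median of -0.20. Per2, a repressor of the clock, had 1256, 1404 and 1832 on the nondiabetic arrays and 448, 730 and 504 on the diabetic arrays (log2 difference -1.43 ± 0.19, adjusted p = 0.00207). Bhlhe40, a repressor that answers to the clock, had 919, 831 and 928 on the nondiabetic arrays and 391, 320 and 381 on the diabetic arrays (log2 difference -1.30 ± 0.12, adjusted p = 0.000298). Both held without each array in turn. Per1, the relative of Per2, went the opposite way, with 268, 221 and 231 on the nondiabetic arrays and 442, 482 and 388 on the diabetic arrays (log2 difference 0.86 ± 0.17, adjusted p = 0.0203). Dbp, an output factor of the clock, had 413, 541 and 364 on the nondiabetic arrays and 208, 192 and 264 on the diabetic arrays and an adjusted p of 0.0624. Bmal1, the core activator, had 267, 309 and 355 on the nondiabetic arrays and 344, 387 and 309 on the diabetic arrays, which overlapped. The hour of tissue removal is not given in the sources used here, and its part in these values was not tested.

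The clock activators bind the E-box CACGTG, which was found in the same 250 bases of 1591 promoters (5.79%) and in 3 of 17 clock genes with a promoter, Bhlhe40, Bhlhe41 and Tef. The stretch of Bhlhe40, the gene with the clearest fall, is printed with the E-box in capitals, on the gene's strand in GRCr8.
Bhlhe40, chr4:143174205-143174260: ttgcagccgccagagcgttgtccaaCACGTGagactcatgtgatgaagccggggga
Bhlhe41, a relative of Bhlhe40, gave -0.07 ± 0.29 and Tef, an output factor, -0.33 ± 0.13, and neither passed.

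Immediate early genes had 4 of 27 members higher and 1 lower, with a median of 0.22. Fos had 82.2, 74.5 and 55.6 on the nondiabetic arrays and 211, 174 and 142 on the diabetic arrays (log2 difference 1.31 ± 0.28, adjusted p = 0.0301), with nondiabetic signals near the limit for dim probe sets. Myc, a growth factor-induced transcription factor, had 168, 127 and 106 on the nondiabetic arrays and 294, 342 and 432 on the diabetic arrays (log2 difference 1.42 ± 0.24, adjusted p = 0.00945). Klf6 had 732, 514 and 512 on the nondiabetic arrays and 848, 1124 and 944 on the diabetic arrays (log2 difference 0.74 ± 0.16, adjusted p = 0.0262). That probe set has a mean signal of 661. Other probe sets of Klf6, with mean signals of 643 and 96.9, gave 0.305 and 0.504 and were not called (adjusted p = 0.39 and 0.529). Within the Klf family of zinc finger factors, Klf15 rose, with 1298, 1518 and 1606 on the nondiabetic arrays and 2371, 2154 and 2759 on the diabetic arrays (log2 difference 0.72 ± 0.15, adjusted p = 0.0247), and Klf9 fell, with 3664, 3912 and 4910 on the nondiabetic arrays and 2784, 2734 and 2453 on the diabetic arrays (log2 difference -0.64 ± 0.14, adjusted p = 0.0333). Egr1, another classic member, had 448, 388 and 447 on the nondiabetic arrays and 723, 440 and 587 on the diabetic arrays, which overlapped. None of the 5 calls held without each array, and without diabetic replicate 3 all 5 were lost.

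Genes of the p53 response and DNA damage had 3 rises and 0 falls among 23 genes, with a median of 0.16. Ccng1 (cyclin G1) had 2831, 2876 and 2437 on the nondiabetic arrays and 4585, 6453 and 4983 on the diabetic arrays (log2 difference 0.96 ± 0.13, adjusted p = 0.00207). Mgmt, which removes alkyl groups from guanine in DNA, had 541, 489 and 523 on the nondiabetic arrays and 904, 910 and 981 on the diabetic arrays (log2 difference 0.85 ± 0.10, adjusted p = 0.00156). Plk2, a stress-induced kinase, had 174, 195 and 165 on the nondiabetic arrays and 366, 415 and 381 on the diabetic arrays (log2 difference 1.12 ± 0.21, adjusted p = 0.014). The calls of Ccng1 and Mgmt held without each array. Both were also called at 10 weeks, by 0.93 ± 0.13 and 0.65 ± 0.10, where 45 of 10581 genes (0.425%) were called. Cdkn1a, the cell cycle inhibitor induced by p53, had 414, 202 and 363 on the nondiabetic arrays and 498, 511 and 577 on the diabetic arrays and an adjusted p of 0.0961.

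Glucose carriers had 2 of 12 members higher, with a median of 0.13. Slc2a2 (GLUT2), the exit path for glucose at the base of proximal tubule cells, had 5325, 3742 and 4019 on the nondiabetic arrays and 6759, 7083 and 8826 on the diabetic arrays (log2 difference 0.80 ± 0.16, adjusted p = 0.0237). Slc5a3, which imports the osmolyte myo-inositol, had 762, 1216 and 861 on the nondiabetic arrays and 1922, 2408 and 1875 on the diabetic arrays (log2 difference 1.15 ± 0.28, adjusted p = 0.046). Slc5a2 (SGLT2), the main uptake carrier at the luminal side, had 3627, 2724 and 5204 on the nondiabetic arrays and 2480, 2358 and 3552 on the diabetic arrays, overlapping arrays, and gave -0.44 ± 0.21 (adjusted p = 0.326). The call of Slc5a3 was lost whichever of the 6 arrays was left out, and without nondiabetic replicate 2 neither carrier was called.

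Water and osmolyte genes had 3 of 18 members higher and 1 lower, with a median of 0.18. Aqp4, a water channel of the basolateral membrane, had 295, 154 and 230 on the nondiabetic arrays and 651, 616 and 457 on the diabetic arrays (log2 difference 1.38 ± 0.33, adjusted p = 0.0452), and the inositol carrier Slc5a3 counts here too. Of the aldo-keto reductases, Akr1b8 rose, with 232, 151 and 137 on the nondiabetic arrays and 290, 390 and 463 on the diabetic arrays (log2 difference 1.15 ± 0.24, adjusted p = 0.0277), and Akr1b10 fell, with 1386, 1279 and 949 on the nondiabetic arrays and 559, 601 and 728 on the diabetic arrays (log2 difference -0.93 ± 0.20, adjusted p = 0.0274). Akr1b1, the aldose reductase that makes sorbitol, had 987, 924 and 607 on the nondiabetic arrays and 616, 744 and 737 on the diabetic arrays, which overlapped. These reductases are close relatives, and probes may be shared between them. Aqp2, the water channel regulated by vasopressin, had 4454, 5179 and 4249 on the nondiabetic arrays and 5340, 6524 and 6646 on the diabetic arrays, arrays that did not overlap, and an adjusted p of 0.106. Without nondiabetic replicate 2 none of the 4 calls was left.

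Carriers of organic anions, cations and urate had 5 of 40 higher and 2 lower, with a median of 0.13. Slc10a2, the apical bile acid carrier, had 217, 204 and 223 on the nondiabetic arrays and 474, 495 and 530 on the diabetic arrays (log2 difference 1.22 ± 0.14, adjusted p = 0.00125), and it alone of the 7 held without each array. Slco2a1, which takes up prostaglandins, had 513, 480 and 322 on the nondiabetic arrays and 1192, 751 and 1243 on the diabetic arrays (log2 difference 1.27 ± 0.22, adjusted p = 0.0109). Slc17a3, of the phosphate and urate carriers, had 5277, 5873 and 6036 on the nondiabetic arrays and 9460, 7560 and 8536 on the diabetic arrays (log2 difference 0.57 ± 0.12, adjusted p = 0.0301), and its relative Slc17a1 4618, 5125 and 4443 on the nondiabetic arrays and 6197, 5634 and 6532 on the diabetic arrays (log2 difference 0.37 ± 0.08, adjusted p = 0.0257). Abcc2, which exports conjugates into urine, had 416, 493 and 402 on the nondiabetic arrays and 553, 847 and 782 on the diabetic arrays (log2 difference 0.72 ± 0.17, adjusted p = 0.0421). The falls were in Slc13a3, a dicarboxylate carrier, with 15619, 14656 and 15262 on the nondiabetic arrays and 10116, 12381 and 11186 on the diabetic arrays (log2 difference -0.44 ± 0.09, adjusted p = 0.019), and Slc22a25, an anion carrier (log2 difference -0.38 ± 0.08, adjusted p = 0.0278). Without diabetic replicate 3 only 1 of the 7 calls was left.

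Amino acid carriers changed downward where they changed, with 0 of 30 higher, 3 lower and a median of -0.09. Slc7a7, the light chain of the basolateral exchanger of cationic amino acids, had 12505, 10622 and 11079 on the nondiabetic arrays and 6285, 6739 and 7192 on the diabetic arrays (log2 difference -0.76 ± 0.13, adjusted p = 0.00924), and held without each array. Slc25a13, the mitochondrial aspartate-glutamate carrier, had 5903, 5849 and 5693 on the nondiabetic arrays and 4503, 4320 and 4523 on the diabetic arrays (log2 difference -0.39 ± 0.08, adjusted p = 0.0259). Slc25a15, the mitochondrial ornithine carrier, had 4773, 4087 and 3905 on the nondiabetic arrays and 3366, 3162 and 3211 on the diabetic arrays (log2 difference -0.39 ± 0.08, adjusted p = 0.0262). The luminal pair Slc3a1 and Slc7a9 of cystine uptake gave 0.00 ± 0.09 and -0.18 ± 0.10, and neither passed.

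Sodium and acid-base transport had few calls. Of 39 sodium transporters, pumps and channels 2 fell and 0 rose (5.13% called, against 3.49% of all genes), with a median of -0.11. An unadjusted p under 0.05 was found for 15 of the 39, against 3131 of 18625 probe sets tested. For 12 of the 39 the diabetic arrays were all lower, a larger share than the 11.9% of all genes. For 4 they were all higher, where 10.7% of all genes were. Slc26a6, an anion exchanger for chloride, oxalate and bicarbonate, had 314, 239 and 288 on the nondiabetic arrays and 53.4, 132 and 84 on the diabetic arrays (log2 difference -1.73 ± 0.30, adjusted p = 0.00961). Kcne1, a potassium channel subunit, had 137, 247 and 281 on the nondiabetic arrays and 46.5, 66.8 and 89.4 on the diabetic arrays (log2 difference -1.70 ± 0.37, adjusted p = 0.0322), with diabetic signals near the limit for dim probe sets. Slc12a3, the thiazide-sensitive cotransporter, had 3386, 3142 and 2727 on the nondiabetic arrays and 2267, 2378 and 1776 on the diabetic arrays, no overlap, and an adjusted p of 0.16. Slc12a1, the loop diuretic target, had 5410, 5425 and 5126 on the nondiabetic arrays and 9367, 5425 and 5445 on the diabetic arrays, with diabetic replicate 1 far above the other 5 arrays. Of 24 genes of phosphate, calcium and vitamin D handling Slc20a2, a phosphate carrier, rose (log2 difference 0.67 ± 0.14, adjusted p = 0.0285), and Slc34a1, the main luminal phosphate carrier, gave 0.04 ± 0.10.

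Tissue kallikreins were lower. Among 30 genes of the renin-angiotensin, kallikrein and vasoactive systems 0 rose and 3 fell, all of this protease family, with a median of -0.03. Klk1, which releases kinins, had 4925, 5403 and 6267 on the nondiabetic arrays and 3591, 3320 and 2688 on the diabetic arrays (log2 difference -0.79 ± 0.15, adjusted p = 0.0153). Klk1b3 had 5083, 5358 and 6169 on the nondiabetic arrays and 3030, 2940 and 1961 on the diabetic arrays (log2 difference -1.09 ± 0.18, adjusted p = 0.00924), and Klk1c4 had 256, 291 and 911 on the nondiabetic arrays and 77.6, 80 and 57.5 on the diabetic arrays (log2 difference -2.52 ± 0.59, adjusted p = 0.0402). The near-identical members of this family can share probes, so the 3 need not be separate observations. Agtr1a, the main angiotensin receptor of the cortex, had 1956, 1827 and 1742 on the nondiabetic arrays and 1152, 1692 and 1585 on the diabetic arrays and did not pass (adjusted p = 0.291).

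Detoxification and redox genes changed mostly upward. Of 29 conjugating transferases 4 rose and 1 fell (median 0.21), of 26 cytochromes P450 2 rose (median 0.08), and of 53 antioxidant genes 3 rose and 1 fell (median 0.06). Leaving out nondiabetic replicate 2 took the transferase calls from 5 to 2 and the antioxidant calls from 4 to 1, and leaving out diabetic replicate 3 took the P450 calls from 2 to 0. Cyp2e1, an ethanol and ketone oxidising P450, had 6999, 9481 and 9371 on the nondiabetic arrays and 13644, 16234 and 18748 on the diabetic arrays (log2 difference 0.91 ± 0.18, adjusted p = 0.0186). Mgst1, a glutathione transferase of membranes, had 11892, 12905 and 12791 on the nondiabetic arrays and 16910, 15656 and 17556 on the diabetic arrays (log2 difference 0.41 ± 0.09, adjusted p = 0.0372), and Gsta3 398, 300 and 345 on the nondiabetic arrays and 630, 531 and 629 on the diabetic arrays (log2 difference 0.78 ± 0.19, adjusted p = 0.0462). Sult1c2, a sulfotransferase, was the transferase that fell, with 10256, 11199 and 12910 on the nondiabetic arrays and 9070, 7364 and 7082 on the diabetic arrays (log2 difference -0.55 ± 0.12, adjusted p = 0.0292). Nox4, the NADPH oxidase of tubules that makes hydrogen peroxide, had 2715, 2698 and 2605 on the nondiabetic arrays and 1554, 1077 and 1056 on the diabetic arrays (log2 difference -1.14 ± 0.15, adjusted p = 0.00202), and held without each array. Txnip, the glucose-induced inhibitor of thioredoxin, had 6151, 4642 and 5069 on the nondiabetic arrays and 10130, 9299 and 9893 on the diabetic arrays (log2 difference 0.90 ± 0.16, adjusted p = 0.0135). Nqo1, a classic target of Nrf2, had 379, 372 and 296 on the nondiabetic arrays and 400, 391 and 348 on the diabetic arrays, which overlapped.

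Hormone-related genes gave 3 rises and 3 falls among 34, with a median of 0.05. Dio1, which activates thyroid hormone, had 812, 961 and 756 on the nondiabetic arrays and 360, 270 and 155 on the diabetic arrays (log2 difference -1.76 ± 0.26, adjusted p = 0.0045), and held without each array. Rarres2 (chemerin), a secreted retinoid-induced protein, had 1753, 1728 and 1574 on the nondiabetic arrays and 3061, 3898 and 4444 on the diabetic arrays (log2 difference 1.16 ± 0.22, adjusted p = 0.0153). Stra6, the receptor for retinol and its binding protein, had 838, 221 and 461 on the nondiabetic arrays and 1497, 1271 and 1712 on the diabetic arrays (log2 difference 1.75 ± 0.38, adjusted p = 0.0311), and Rdh16, a retinol dehydrogenase, had 617, 1306 and 944 on the nondiabetic arrays and 380, 168 and 300 on the diabetic arrays (log2 difference -1.77 ± 0.43, adjusted p = 0.0461). Dhrs3, which reduces retinal, had 2040, 1733 and 1962 on the nondiabetic arrays and 1412, 1347 and 1479 on the diabetic arrays (log2 difference -0.43 ± 0.09, adjusted p = 0.0204). Per1 is the remaining member called, and without diabetic replicate 2 only 1 of the 6 calls was left. In insulin, IGF and nutrient signalling, 2 of 50 rose and 1 fell, with a median of -0.03. Igf1r, the receptor of insulin-like growth factor, had 1847, 1462 and 1911 on the nondiabetic arrays and 2377, 3210 and 2774 on the diabetic arrays (log2 difference 0.68 ± 0.16, adjusted p = 0.0422), and Grb10, an adaptor that restrains insulin signalling, had 1529, 1430 and 1207 on the nondiabetic arrays and 920, 909 and 990 on the diabetic arrays (log2 difference -0.56 ± 0.11, adjusted p = 0.017), with Txnip as the other rise. A dimmer probe set of Igf1r gave 0.14 (adjusted p = 0.708), and the dimmer ones of Grb10 gave -0.22 and 0.22 (adjusted p = 0.805 and 0.824). Without nondiabetic replicate 2 none of these 3 calls was left.

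Iron and heme genes had 2 of 26 higher and 1 lower, with a median of 0.18. Slc11a2, the ferrous iron importer, had 4435, 4159 and 4088 on the nondiabetic arrays and 2621, 2256 and 2436 on the diabetic arrays (log2 difference -0.80 ± 0.10, adjusted p = 0.00161), and held without each array. A dimmer probe set of Slc11a2 gave -0.12 (adjusted p = 0.784). Cpox, an enzyme of heme synthesis, had 1110, 1115 and 1113 on the nondiabetic arrays and 1702, 1552 and 1532 on the diabetic arrays (log2 difference 0.52 ± 0.10, adjusted p = 0.0146), and Blvra, which reduces biliverdin to bilirubin, 893, 1340 and 1083 on the nondiabetic arrays and 1923, 1880 and 1785 on the diabetic arrays (log2 difference 0.77 ± 0.17, adjusted p = 0.032). Hmox1, which opens the heme ring, had 15053, 13593 and 254 on the nondiabetic arrays and 1934, 160 and 5321 on the diabetic arrays. Nondiabetic replicate 3 and diabetic replicate 2 lay far below the other arrays, and the gene gave -1.66 ± 1.38 (adjusted p = 0.599).

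Fibrosis genes did not move as a group. Of 51 genes of TGF-β, activin and BMP signalling 1 rose and 1 fell (median 0.04), and of 54 genes of extracellular matrix 3 rose and 2 fell (median 0.04). Ccn2 (connective tissue growth factor), a target of TGF-β, had 4104, 2869 and 3229 on the nondiabetic arrays and 5208, 5410 and 5447 on the diabetic arrays (log2 difference 0.67 ± 0.16, adjusted p = 0.0421). Skil, a repressor of the same pathway, had 6224, 6726 and 6906 on the nondiabetic arrays and 4118, 4218 and 4437 on the diabetic arrays (log2 difference -0.64 ± 0.08, adjusted p = 0.00207), and held without each array. Fn1 (fibronectin) had 838, 779 and 524 on the nondiabetic arrays and 1226, 1328 and 950 on the diabetic arrays (log2 difference 0.73 ± 0.17, adjusted p = 0.041). Tgm2, which crosslinks matrix, had 8373, 6730 and 9900 on the nondiabetic arrays and 3796, 4413 and 4211 on the diabetic arrays (log2 difference -0.99 ± 0.24, adjusted p = 0.0428), and P4ha1, which hydroxylates collagen, 1635, 1738 and 1493 on the nondiabetic arrays and 1063, 1217 and 1335 on the diabetic arrays (log2 difference -0.43 ± 0.10, adjusted p = 0.0347). The collagens Col1a1, Col3a1 and Col4a1 gave 0.24 ± 0.24, 0.07 ± 0.23 and -0.14 ± 0.17, and none passed. Ccn2 and Spp1 count among the matrix genes as well. Without nondiabetic replicate 2 none of the 5 matrix calls was left.

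Inflammation genes had 2 of 33 higher and 1 lower, with a median of 0.03. Beside Cxcl11, Ccl6, a chemokine of myeloid cells, had 418, 191 and 336 on the nondiabetic arrays and 583, 771 and 559 on the diabetic arrays (log2 difference 1.08 ± 0.24, adjusted p = 0.0324). Cxcl16, a chemokine that also exists as a membrane form, had 4034, 3847 and 3750 on the nondiabetic arrays and 2608, 3188 and 2552 on the diabetic arrays (log2 difference -0.49 ± 0.10, adjusted p = 0.0198). Among 41 interferon response genes limma called 0 (6 with an unadjusted p under 0.05), with a median of 0.11 and 2 calls without nondiabetic replicate 1. Cytoskeleton and junction genes had 2 of 41 lower: Krt7, a keratin of the collecting duct, with 4280, 4153 and 4663 on the nondiabetic arrays and 2146, 2578 and 2482 on the diabetic arrays (log2 difference -0.86 ± 0.10, adjusted p = 0.00135), and Cldn10, a tight junction protein, with 6316, 7744 and 6821 on the nondiabetic arrays and 5588, 3487 and 4561 on the diabetic arrays (log2 difference -0.64 ± 0.15, adjusted p = 0.0373). Among 35 angiogenesis genes Vwf and Egln1, an oxygen sensor (log2 difference -0.44 ± 0.11, adjusted p = 0.0453), fell, and among 47 lysosomal genes Atp6v1b2, a proton pump subunit (log2 difference -0.35 ± 0.07, adjusted p = 0.0274), fell.

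Cell type markers were read with the same limit on all of them: in whole cortex, fewer cells of a type and less RNA per cell cannot be told apart. For podocytes, the filter cells of the glomerulus, 13 of 16 markers were negative, with a median of -0.29, and limma called 0 (7 with an unadjusted p under 0.05). Nphs1 (nephrin) had 507, 582 and 452 on the nondiabetic arrays and 330, 371 and 343 on the diabetic arrays, no overlap, and an adjusted p of 0.0524. Wt1, a podocyte transcription factor, had 557, 506 and 480 on the nondiabetic arrays and 347, 341 and 434 on the diabetic arrays, again without overlap (adjusted p = 0.207). For 8 of the 16 markers all diabetic arrays were below all nondiabetic arrays, against 11.9% of all genes. The summed signal of the podocyte list was 18120 to 20580 on nondiabetic and 18010 to 18570 on diabetic arrays, so the sums overlapped. Macrophage and dendritic cell markers were positive in 15 of 16, with a median of 0.36 and 0 calls in limma (4 with an unadjusted p under 0.05), and their sums of 17370 to 28810 on nondiabetic arrays overlapped those of 24780 to 32950 on diabetic arrays. Csf1r, the growth factor receptor of macrophages, had 362, 347 and 337 on the nondiabetic arrays and 498, 565 and 425 on the diabetic arrays (adjusted p = 0.0648), while Cd163 and Itgam were dim, at 4.26 to 40.7 and 4.39 to 41.0 on the 6 arrays.

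Thick ascending limb markers followed the split between diabetic arrays. Their summed signal was 46480, 54290 and 51130 on the nondiabetic arrays and 50610, 35870 and 32530 on the diabetic arrays. Of 11 markers 9 were negative, with a median of -0.27, and Cldn10 alone was called. Umod (uromodulin), the main protein of normal urine, had 18885, 21497 and 22473 on the nondiabetic arrays and 18361, 15593 and 11255 on the diabetic arrays (adjusted p = 0.39), and Egf, made in the same and the next segment, had 10147, 11545 and 10879 on the nondiabetic arrays and 10163, 5914 and 6231 on the diabetic arrays (adjusted p = 0.0648). For the sum of these markers diabetic replicate 1 lay within the nondiabetic range, and the other diabetic arrays lay below it. Without it, the class median was -0.40, and without diabetic replicate 3 it was -0.10. Proximal tubule markers had 2 of 31 higher and 2 lower, with a median of -0.02. Endothelial markers had 11 of 14 negative and a median of -0.19, with Vwf the member called.

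Adipocyte markers, which would mark perirenal fat, had 7 of 9 positive, a median of 0.42 and 0 calls in limma (2 with an unadjusted p under 0.05). For 4 of the 9 all diabetic arrays were above all nondiabetic arrays, against 10.7% of all genes, and for 0 below. Lep, Plin1 and Ucp1 were dim, none above 62.8 on the 6 arrays, as were Cfd and Pparg, with highest signals of 121 and 87.3. Fabp4, a fatty acid binder of fat and of endothelium, had 104, 109 and 51.8 on the nondiabetic arrays and 571, 445 and 229 on the diabetic arrays (adjusted p = 0.341). Adrenal enzymes Cyp11b1, Cyp21a1 and Star did not exceed 68.5 on the 6 arrays, and the adrenal markers Hsd3b1 and Nr5a1, also dim, reached 99.7 and 99.2. The 2 adrenal markers tested were higher on every diabetic array, with a median of 0.67 and 0 calls in limma (1 with an unadjusted p under 0.05). Of the 2, Cyp11a1 had 151, 117 and 174 on the nondiabetic arrays and 187, 330 and 598 on the diabetic arrays. Of 8 neutrophil markers on the array 6 were dim, S100a8 among them at 6.05 to 100. The other 2 were higher on every diabetic array, with an unadjusted p under 0.05 for both and 0 calls in limma: Lcn2, which injured tubules also make, and S100a9, with 60.8, 62 and 47.5 on the nondiabetic arrays and 100, 243 and 83.9 on the diabetic arrays (adjusted p = 0.134). The part of neutrophils in these values was not tested.

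**Figure D3:**
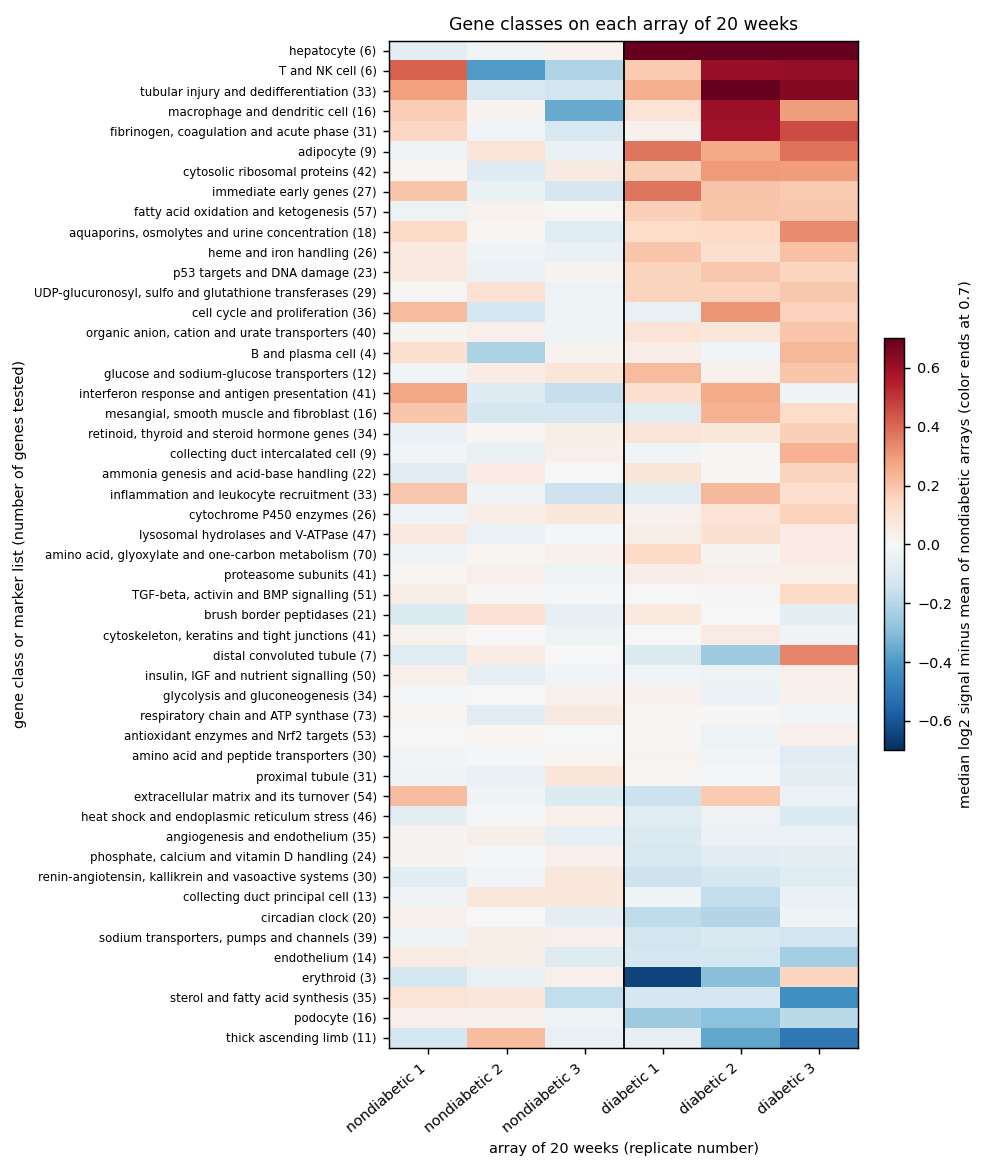
Median log2 signal of each gene class or marker list on each array of 20 weeks, minus the mean of the nondiabetic arrays, as color (red higher, blue lower, ending at 0.7). Injury genes are at 0.25 on diabetic replicate 1 against 0.71 and 0.64 on the other diabetic arrays, and thick ascending limb markers at -0.06 against -0.36 and -0.50.

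Some of the largest differences in size did not pass the test. Slco1a1, an organic anion carrier known for higher levels in males, had 783, 2404 and 1230 on the nondiabetic arrays and 274, 134 and 33.4 on the diabetic arrays (log2 difference -3.63 ± 1.29, adjusted p = 0.172). Cyp2c11, the male-type P450 of rats, had 501, 2002 and 717 against 103, 106 and 67.0 (-3.31 ± 0.89, adjusted p = 0.0705). Kap, the androgen-regulated protein of proximal tubule, had 20670, 22340 and 26460 against 15780, 1678 and 539 (-3.25 ± 0.85, adjusted p = 0.064). Each was lower on every diabetic array, and in Kap diabetic replicate 1 kept most of the nondiabetic level while replicates 2 and 3 did not. Rgn (regucalcin), a calcium-binding protein, had 3940, 7151 and 4271 against 1488, 989 and 620 (-2.35 ± 0.70, adjusted p = 0.104). For Slc7a12, an amino acid carrier, the groups overlapped, with 877, 4886 and 3193 against 1053, 546 and 404 (-1.96 ± 0.99, adjusted p = 0.347).

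The spread in the model is pooled over all 12 arrays, and the 10-week arrays spread widely in these genes except Kap. In Kap the 20-week diabetic arrays spread most, with a standard deviation of log2 signals of 2.48. It was 0.182 in the 20-week nondiabetic arrays, and 0.345 and 0.712 in the nondiabetic and diabetic arrays of 10 weeks. Nondiabetic replicate 1 of 10 weeks had 44.9 for Slco1a1, where replicates 2 and 3 had 723 and 2826. It was also the lowest of its group in Cyp2c11, with 78.4, in Rgn, with 840, and in Slc7a12, with 236. When the 6 arrays of 20 weeks were fitted alone, Slco1a1, Cyp2c11 and Rgn passed (adjusted p = 0.0406, 0.0133 and 0.0125), and Kap and Slc7a12 did not (adjusted p = 0.155 and 0.153). These 5 genes were singled out after their values were seen.

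**Figure D4:**
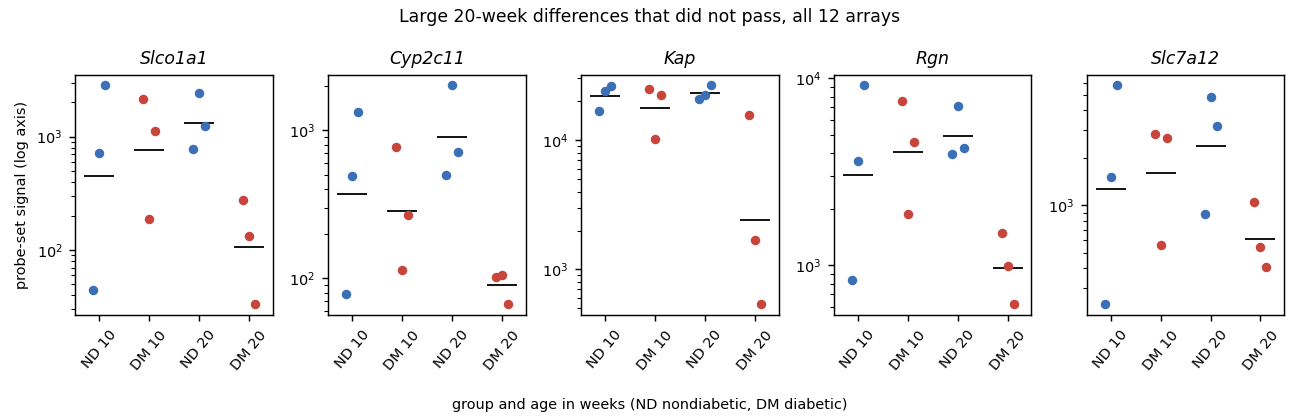
Probe-set signals (log axis) of Slco1a1, Cyp2c11, Kap, Rgn and Slc7a12 on all 12 arrays, by group and age (ND nondiabetic, DM diabetic), with the geometric mean as a line. The 20-week diabetic arrays are the lowest group in all 5, and the 10-week nondiabetic group holds 1 array far below its other 2 in Slco1a1, Cyp2c11, Rgn and Slc7a12.

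The number of probe sets called changed when single arrays were left out. Leaving out nondiabetic replicate 1, 2 or 3 gave 399, 205 and 357 calls, and leaving out diabetic replicate 1, 2 or 3 gave 312, 216 and 194, against 529 with all arrays. Leaving out a 10-week array, which also leaves 11 arrays, gave 415 to 520. No probe set called with all arrays changed sign in any of them. Without diabetic replicate 3 the share of higher calls was 27.3%, against 43.1% with all arrays. Diabetic replicate 1 was the diabetic array nearest to the nondiabetic ones for 104 of the 228 higher and 121 of the 301 lower calls.

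In all 133 probe sets (25.1% of 529) were called with all arrays and without each of the 6 in turn, 37 higher (16.2% of the higher calls) and 96 lower (31.9% of the lower calls). They name 104 genes. Among the higher ones are Baat, Fga, Angptl4, Bhmt, Sult1a1, Pigr, Cxcl11, Nek6, Tm7sf2, Slc10a2, Ccng1, Mgmt, Plin2 and Slc27a2. Among the lower ones are Hao1, Tmem86a, Nrep, Mpv17l, Dio1, Slc26a6, Per2, Bhlhe40, Fads1, Nox4, Klk1b3, Krt7, Manf, Slc11a2, Slc7a7, Skil, Acly and Eno1. Of the 116 list members called, 33 were of this kind. Leaving out nondiabetic replicate 1, 2 or 3 took the call from 38, 70 and 52 of the 116, and leaving out diabetic replicate 1, 2 or 3 from 53, 68 and 71. Among those lost without nondiabetic replicate 1 were Cyp2e1, Acsl1, Ehhadh, Phgdh, Grb10, Akr1b10, Abcc2, Atp5me, Igf1r and Vwf. Cebpd, a transcription factor of the acute phase, and Arrdc3, an arrestin-like protein, are also among the 104 and were picked after their values were seen, with 184, 153 and 139 on the nondiabetic arrays and 435, 426 and 372 on the diabetic arrays and 5002, 3211 and 3554 on the nondiabetic arrays and 7541, 6752 and 9234 on the diabetic arrays. In Cebpd and Arrdc3, as in every rise called, the lowest diabetic array was above the highest nondiabetic one. Several probe sets were tested for 33 of the called genes chosen by the naming rules given with the data processing. Of these 33 genes, 9 were called on every probe set. In 4 (Atp5me, Grb10, Nit1 and Tm9sf4) another probe set had the opposite sign without being called. Called genes outside those rules, Arrdc3 among them, were not counted here.

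The 10-week diabetic arrays include replicate 1, whose label names a vehicle pellet. At 10 weeks, after diabetes begun before puberty, 57 of 18625 probe sets (0.306%) were called. Of these 42 were called at 20 weeks too, all in the same direction, which is 73.7% of the 57 and 7.94% of the 529. Of the 529, 458 had the same sign at 10 weeks and 504 were larger in size at 20 weeks. They were chosen by their size at 20 weeks, so the latter count is what selection favours. Over all probe sets tested the 2 sets of differences, which share no arrays, correlated with r = 0.18 (rho = 0.18), a description across probe sets on the same arrays' annotation. The difference of the differences was called by limma for 0 of 18625 probe sets (0%), and for 1480 it had an unadjusted p under 0.05.

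**Figure D5:**
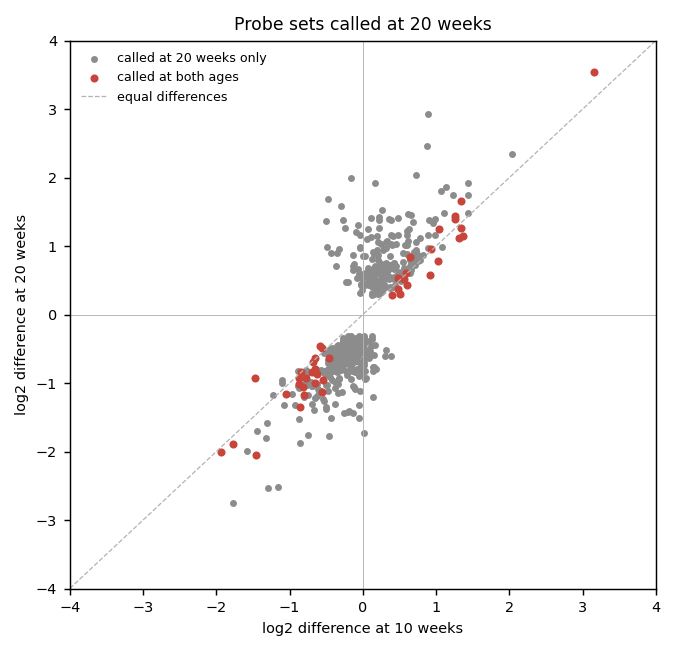
Log2 difference, diabetic minus nondiabetic, at 20 weeks against that at 10 weeks for the 529 probe sets called at 20 weeks, with the 42 called at both ages in red and a dashed line of equal differences. Most points lie farther from 0 on the 20-week axis, by which they were chosen, and the 42 lie in the quadrants of equal sign.

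Genes differed in how far the 10-week arrays went along. Cxcl11, Nek6 and Bhmt gave 1.25 ± 0.16, 1.26 ± 0.21 and 1.34 ± 0.25 at 10 weeks and were called there, as was Nrep (-1.94 ± 0.19). Per2, Pter, Basp1 and Myc gave -0.13 ± 0.19, -0.19 ± 0.13, -0.20 ± 0.19 and 0.11 ± 0.24, and none was called at 10 weeks. Slc26a6 gave 0.02 ± 0.30 at 10 weeks, and Fga 0.87 ± 0.30. For Pter, the difference between the ages was -1.21 ± 0.19, with an adjusted p of 0.0979. That was the lowest adjusted p among the 10 genes named for this comparison, and 2 of the others shared it. The ages are thus not shown to differ for any of these genes.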

How the data were processed

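Signals of 31099 probe sets on 12 one-color rat arrays of renal cortex RNA were used, 3 per group, with groups and replicate numbers from the labels. The deposited intensities are probe-set signals on a linear scale, made by the authors with GCOS per the submitters' processing notes, its version not given in the sources used here. Each array had been scaled to the same trimmed mean of 500.2. Values below 1 (424 of them) were set to 1 before log2, 57 control probe sets were left out, and so were the dimmest 40% by mean log2 signal, which left 18625. One linear model with 4 group means was fitted with limma 3.58.1 in R 4.3.3, with an intensity trend, 8 residual degrees of freedom before moderation and Benjamini-Hochberg adjustment over all probe sets tested; adjusted p-values are two-sided and called under 0.05. Probe sets were named from the platform annotation updated through RefSeq: 20826 name 1 gene, 436 several and 9780 none.

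Named were the 20 largest higher and lower genes called whose arrays did not overlap, the 4 members of each of 52 gene lists with the smallest p, other list members called, and 10 genes of the difference between ages; other list members may be named with their values. The lists and the genes were chosen with earlier results of these data known. Deviations of same-numbered arrays from their group means correlated at -0.0425, 0.0606 and 0.141 at 20 weeks, so the numbers were not taken to pair arrays. The number of arrays limits the precision.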

Additional observations from a re-analysis of the deposited data

Results flagged for a closer look

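Of the 10 genes with the smallest p for the difference between ages, 6 had every diabetic array on one side of the nondiabetic arrays at 20 weeks and on the other side at 10 weeks. The values are the log2 difference at 20 weeks minus that at 10 weeks, and the test of it in limma passed for none. Tnfrsf21, a death receptor, gave -0.909 and Slc25a15, the ornithine carrier, -0.998 on a probe set other than its brightest (adjusted p = 0.0979 for both). Wsb1, a ubiquitin ligase subunit, gave 1.01 (adjusted p = 0.225), and Zfp462, a zinc finger protein, 1.47 (adjusted p = 0.269). Dbp, the clock output factor, gave -1.98, from -0.98 at 20 weeks and 0.99 at 10 weeks (adjusted p = 0.26). Zswim6 gave 0.964 (adjusted p = 0.319). The 10 genes were chosen by this same difference between ages, so opposite sides at the 2 ages are what that choice favours. Of 18625 probe sets tested, 3894 had no overlap at 20 weeks and 3164 at 10 weeks. At both ages, 878 had no overlap in the same direction and 112 in opposite directions, so these 6 are not the only ones.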

How the results depend on the processing

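The 529 calls became 191 without the intensity trend, 309 with the 6 arrays of 20 weeks alone, and 331 without the array of highest Gapdh 3'/5' ratio and a 10-week diabetic array whose label names a vehicle pellet, an alternative chosen after seeing the data. With 1 array left out in turn there were 194 to 520. Under the other settings (quantile scaling, median centring, both filters, the offset, robust moderation, array weights and the Gapdh covariate) there were 389 to 567, and no called probe set changed sign in any setting. With the replicate number as a block there were 431 calls, 381 of them shared, and 0 for the difference between ages. That difference had 3 calls with the Gapdh covariate and 0 to 2 with 1 array left out, where 2 came without nondiabetic replicate 1 or 3 of 20 weeks; the cause was not tested. The log2 difference of the Gapdh 3'/5' ratio ran from -0.0988 to 0.178 and that of beta-actin from -0.024 to 0.328 with 1 array left out. The median of the ribosomal proteins was 0.183 under quantile scaling and 0.215 under centring, against 0.248. Of 1250 class medians recomputed, 117 moved by more than the spread between replicates. Counted here are 140 called probe sets of named genes. Rpl35a and Rpl4, not among the 140, lost their calls whichever of the 6 arrays of 20 weeks was left out. Of the 140, 96 lost the call in at least 1 setting and 0 changed sign. Genes near 0 that were not called did: Slc3a1 gave -0.0234 under quantile scaling, -0.028 under centring and -0.00857 without the array of highest ratio and that 10-week array, and Slc34a1 -0.00833 under quantile scaling. With 1 array left out, Acadm ran from -0.0878 to 0.0242, Slc3a1 from -0.0432 to 0.0666, Bhlhe41 from -0.358 to 0.283, Slc34a1 from -0.0815 to 0.126, Dnajc3 from -0.0206 to 0.142 and Col3a1 from -0.191 to 0.299.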
